A study of Mus musculus with 8 samples.

Results

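The genes described here encode the proteasome: its proteolytic core, the regulatory particle that caps it, the chaperones of the regulatory particle's base, the alternative activators and one inhibitor. They were a list of 40 gene symbols, set by name, though with earlier results of these data known. All 40 were present in every count table and all 40 passed the filter on low counts, of 13174 genes that passed in all. Messenger RNA was sequenced from its 3' end in gastrocnemius, a calf muscle, of C57BL/6 mice listed as 4 weeks old. The series addressed cancer cachexia, the muscle wasting that accompanies a tumour, and an extract of the peony Paeonia lactiflora.

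The Normal group (3 libraries) was injected under the skin with 100 µl of saline and then received 200 µl of water by mouth. The Control group (3 libraries) was injected with 1000000 Lewis lung carcinoma cells, a mouse lung tumour line, and received the same volume of water. The RP group (2 libraries) carried the same tumour and received 100 mg/kg of a 30% ethanol extract daily for 2 weeks, after 2 weeks of tumour growth. Separate animals are not named for the libraries in the labels, so each p-value refers to the spread among libraries, part of which may be technical. The names and headers of the 6 tables of the Normal and Control samples each carry the other group's name. Libraries are named here by their titles. Should the tables be named correctly and the titles not, every direction between Normal and Control is turned around, and the comparisons of RP with the Normal-titled and with the Control-titled libraries exchange places.

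The proteasome is the protease that breaks down proteins tagged with ubiquitin. Its core is a barrel of stacked rings. The outer rings, of alpha subunits, gate the entrance, and the inner rings, of beta subunits, hold the proteolytic sites. The regulatory particle consists of a base, with a ring of ATPases that unfold the substrate, and a lid that removes the ubiquitin chain. In wasting muscle the ubiquitin-proteasome system is known as a main route of myofibrillar protein loss, with the ubiquitin ligases Fbxo32 and Trim63 as its best-known muscle markers.

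Library totals ran from 9528011 to 12333767 counts. A member held between 117 counts (Psmd9, in its lowest library) and 9757 counts (Psmd8, in its highest). CPM are counts per 1000000 counts, scaled between libraries by edgeR's TMM method. The marker sums of this paragraph are the exception, taken over the raw total without that scaling. Skeletal muscle markers were abundant in all 8 libraries. The 10 listed summed to 87100, 92800 and 97000 CPM in Normal 1, 2 and 3. The sums were 129000, 130000 and 121000 CPM in Control 1, 2 and 3, and 132000 and 127000 CPM in RP 1 and 2. With TMM scaling, 5 of the 10 were higher and 5 lower in Control-titled than in Normal-titled libraries (median log2 change 0.01). Pvalb and Mylpf, both higher, were the 2 that passed the threshold used below. In bulk tissue, fewer cells of a type and less RNA per cell cannot be told apart. Libraries titled Normal held more blood transcripts. The 11 erythroid markers in the tables summed to 31200 to 135000 CPM in the Normal-titled, 10100 to 11600 in the Control-titled and 6230 and 26700 in the RP libraries. The 12 neutrophil markers summed to 1030 to 2010, 16.4 to 31.8, and 40.3 and 492 CPM, respectively. The neutrophil markers Ngp and Ltf had no count in Control 1 and 2. Among 7 fibroblast and tenocyte markers, 5 were higher and 0 lower at the threshold used below in Control-titled against Normal-titled libraries. Their median log2 change was 2.45. In RP against Normal-titled libraries 4 of the 7 were higher and 0 lower. Of all genes, 4.99 and 1.67% were called higher in these comparisons.

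Together the 40 genes took 0.717, 1.01 and 0.731% of all counts in Normal 1, 2 and 3. They took 0.581, 0.589 and 0.581% in Control 1, 2 and 3, and 0.585 and 0.598% in RP 1 and 2. Every Normal-titled library lay above the other 5, whose 95% Wilson intervals, which cover counting error only, ran from 0.576 to 0.603%. Haemoglobin genes filled 4.57, 9.56 and 19.7% of Normal 1, 2 and 3, against 1.41 to 1.61% of the Control-titled and 0.862 and 3.83% of the RP libraries. With haemoglobin counts left out of the total, the share of the 40 genes was 0.751, 1.11 and 0.91% in Normal 1, 2 and 3, 0.589 to 0.599% in the Control-titled libraries and 0.59 and 0.622% in RP 1 and 2. Normal 2 therefore had the highest proteasome share, and Normal 3 the highest haemoglobin share. The ribosomal RNA transcript Rn45s remained in both totals. It filled 8.12, 2.8 and 3.16% of all counts in Normal 1, 2 and 3. In Control 1, 2 and 3 it filled 1.82, 4.43 and 2.57%, and in RP 1 and 2 4.69 and 2.84%.

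**Figure D1:**
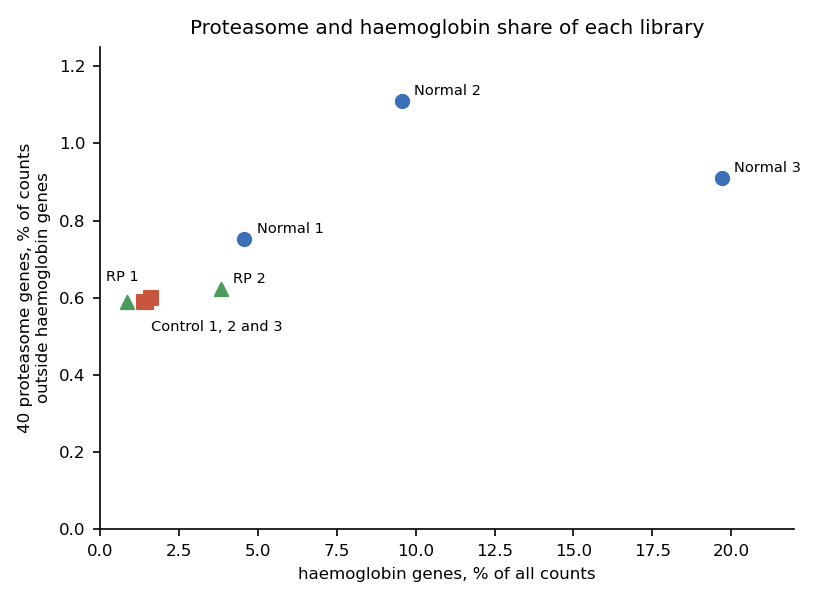
Each point is 1 library, with the share of all counts in haemoglobin genes (x axis, %) and the share of the other counts in the 40 proteasome genes (y axis, %, from 0). The 3 Normal-titled libraries (circles) lie between 0.751 and 1.11%, above the Control-titled libraries (squares, 0.589 to 0.599%) and RP (triangles, 0.59 and 0.622%).

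The first comparison set Control-titled against Normal-titled libraries, that is, tumour-bearing against saline-injected mice by the titles. Many proteasome transcripts were lower in the Control-titled libraries, 12 of them from the 18 genes of the regulatory particle and 4 from the 14 of the core. Of the 40 members, 16 were lower and 0 higher in edgeR's quasi-likelihood test at a Benjamini-Hochberg adjusted p of at most 0.05 over all 13174 genes. Of all genes tested, 10.4% were called, 5.45% as lower and 4.99% as higher. The log2 change was below 0 for 36 of the 40 members. It ran from -1.34 (Psmd8) to 0.46 (Psme2), with a median of -0.47, where the median of all genes tested was 0. For 27 members the libraries of the groups did not overlap with Control-titled lower, and for 2 with Control-titled higher, against 14.7 and 16.6% of all genes.

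The count moved with single libraries. It was 5 without Normal 2, 6, 10 and 4 without Control 1, 2 and 3, and 27 (26 lower and 1 higher) without Normal 1, while the median stayed between -0.59 and -0.40. With the log2 level of Hba-a1, a haemoglobin gene, as a covariate, 1 member (Psmd11) was called and the median was -0.26. With the haemoglobin genes and the ribosomal RNA transcript Rn45s removed before scaling, the 16 calls were the same and the median was -0.46. Hba-a1 itself was at 14900, 32800 and 81500 CPM in Normal 1, 2 and 3 and at 5300, 6720 and 5230 CPM in Control 1, 2 and 3. These groups did not overlap, so the fit with that covariate cannot tell blood content from group. The part of blood or fibroblast transcripts in the differences was not tested.

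**Figure D2:**
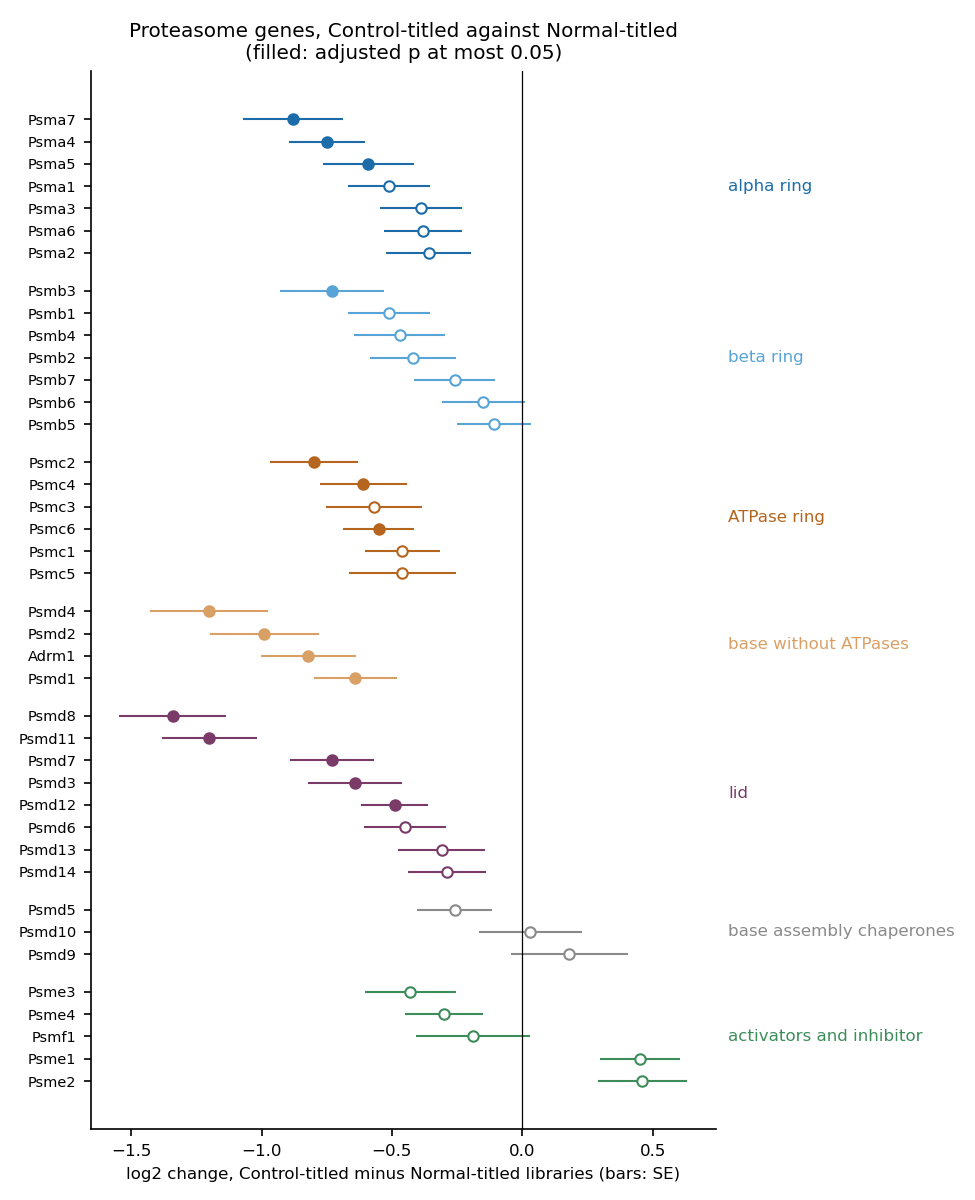
Log2 change of each of the 40 genes between Control-titled and Normal-titled libraries (x axis, negative where Control-titled is lower), grouped by role, with bars of 1 SE and filled points where the adjusted p is at most 0.05. Filled points lie in the alpha, beta and ATPase rings, the rest of the base and the lid; none lies among the base assembly chaperones or the activators and inhibitor.

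The largest change of any member was in the lid. Of its 8 members 5 were lower (Psmd3, Psmd7, Psmd8, Psmd11 and Psmd12), with a median log2 change of -0.57. Psmd8 (chromosome 7, 29174188 to 29180701, build mm10), a subunit that completes the lid, stood at 572, 934 and 750 CPM in Normal 1, 2 and 3 and at 308, 352 and 233 CPM in Control 1, 2 and 3. The lowest Normal-titled library was above the highest Control-titled one. Its mean was 752 ± 181 (SD, n = 3) against 297 ± 60.2 (SD, n = 3) CPM, a 2.53-fold difference with a log2 change of -1.34 ± 0.205 (SE) and an edgeR adjusted p = 0.00131. Psmd11 (chromosome 11, 80428615 to 80473248), a lid subunit at the contact with the base, stood at 218, 222 and 167 CPM in Normal 1, 2 and 3 and at 76.5, 111 and 77.2 CPM in Control 1, 2 and 3. These groups did not overlap either, and the log2 change was -1.20 ± 0.182 (SE), edgeR adjusted p = 0.00125. It was the 1 member called under every alternative tried; adjusted for Hba-a1, its log2 change was -1.49 (adjusted p = 0.0169) and that of Psmd8 -0.89 (adjusted p = 0.126). The end of Psmd11 is 99.3% identical over 300 bases to a transcript of A730017L22Rik and to a pseudogene, so some short reads may belong to either.

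The other lid genes called had smaller log2 changes. Psmd7, the structural partner of the deubiquitinase, had a log2 change of -0.73 (edgeR adjusted p = 0.0107), and its adjusted p was 0.0552, 0.0631 and 0.0752 on leaving out Normal 2, Control 1 and Control 3. Psmd3 and Psmd12 had log2 changes of -0.64 and -0.49. Without Normal 2, Control 1, 2 or 3 the adjusted p of Psmd3 was 0.163, 0.135, 0.125 and 0.126, and that of Psmd12 0.0689, 0.121, 0.08 and 0.119. Psmd14, the deubiquitinase that cuts the ubiquitin chain off the substrate, was at 96.8, 119 and 88.7 CPM in Normal 1, 2 and 3 and 82.2, 85.7 and 80.3 CPM in Control 1, 2 and 3. Its groups did not overlap, but the log2 change of -0.29 ± 0.150 (SE) did not pass (edgeR adjusted p = 0.236).

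All 4 genes of the base outside the ATPase ring were lower, with a median log2 change of -0.90. Psmd4 (chromosome 3, 95032694 to 95042614), a ubiquitin receptor, was at 323, 661 and 624 CPM in Normal 1, 2 and 3 and at 219, 268 and 216 CPM in Control 1, 2 and 3. Normal 1 lay far nearer to the Control-titled libraries than Normal 2 and 3 did. The log2 change was -1.20 ± 0.226 (SE), edgeR adjusted p = 0.00504, and -0.54 (adjusted p = 0.379) when adjusted for Hba-a1. Psmd2, a scaffold subunit that docks shuttle proteins, was at 190, 350 and 300 CPM in Normal 1, 2 and 3 and at 139, 167 and 116 CPM in Control 1, 2 and 3. The difference was -0.99 ± 0.209 (SE) on the log2 scale, edgeR adjusted p = 0.00904, and 0.0514 and 0.0617 when Normal 2 or Control 3 was left out. Adrm1, the second ubiquitin receptor described here, was at 66.9, 112 and 104 CPM in Normal 1, 2 and 3 and at 48.5, 58.6 and 53.3 CPM in Control 1, 2 and 3. Between the groups the log2 change was -0.82 ± 0.182 (SE), edgeR adjusted p = 0.0121, with adjusted p = 0.0629, 0.0744 and 0.0601 without Normal 2, Control 1 and Control 3. The scaffold gene Psmd1 had a log2 change of -0.64 (edgeR adjusted p = 0.0223), with adjusted p = 0.0954, 0.128 and 0.102 on leaving out the same libraries.

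In the ATPase ring, 3 of 6 genes were lower (Psmc2, Psmc4 and Psmc6) and the log2 changes ran from -0.80 to -0.46. Psmc2 was at 240, 378 and 347 CPM in Normal 1, 2 and 3 and at 185, 186 and 182 CPM in Control 1, 2 and 3. The Control-titled libraries were nearly level, and the spread lay in the Normal-titled group. Its log2 change was -0.80 ± 0.168 (SE), edgeR adjusted p = 0.00856, and it was lost by a small margin without Control 3 (adjusted p = 0.0507). Psmc4 was at 97.1, 156 and 114 CPM in Normal 1, 2 and 3 and at 81.4, 79.6 and 79.5 CPM in Control 1, 2 and 3, with a log2 change of -0.61 ± 0.167 (SE) and an edgeR adjusted p = 0.0349. Psmc6 changed by -0.55 on the log2 scale (edgeR adjusted p = 0.0225). Without Normal 2, Control 1, 2 or 3 the adjusted p was 0.142, 0.119, 0.118 and 0.123 for Psmc4 and 0.0913, 0.105, 0.093 and 0.0921 for Psmc6.

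In the alpha ring, 3 of 7 genes were lower (Psma4, Psma5 and Psma7), and all 7 had Normal-titled libraries that did not overlap with the Control-titled ones. Psma7 (chromosome 2, 180036374 to 180042433) was at 412, 728 and 648 CPM in Normal 1, 2 and 3 and at 325, 354 and 296 CPM in Control 1, 2 and 3. Its log2 change was -0.88 ± 0.191 (SE), edgeR adjusted p = 0.0109, with adjusted p = 0.0586, 0.0563 and 0.0694 without Normal 2, Control 1 and Control 3. Psma4 was at 211, 246 and 207 CPM in Normal 1, 2 and 3 and at 123, 148 and 123 CPM in Control 1, 2 and 3. These values were tight within each group, and the log2 change of -0.75 ± 0.145 (SE), edgeR adjusted p = 0.00534, passed without each library in turn, as did those of Psmd4, Psmd8 and Psmd11. Adjusted for Hba-a1, the log2 value of Psma4 was -0.81 (adjusted p = 0.0788). Psma5 had a log2 change of -0.59 (edgeR adjusted p = 0.0451), and adjusted p = 0.168, 0.112, 0.126 and 0.174 without Normal 2, Control 1, 2 and 3.

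In the beta ring, 1 of 7 genes was lower: Psmb3, a structural subunit, at 94.7, 147 and 92.2 CPM in Normal 1, 2 and 3 and 71.3, 77.7 and 51.8 CPM in Control 1, 2 and 3. Its log2 change was -0.73 ± 0.200 (SE), edgeR adjusted p = 0.0340, with adjusted p = 0.147, 0.0931, 0.0542 and 0.16 without Normal 2, Control 1, 2 and 3. The 3 catalytic subunits did not pass and their groups overlapped. Psmb5, with the chymotrypsin-like site, was at 123, 162 and 141 CPM in Normal 1, 2 and 3 and at 127, 137 and 132 CPM in Control 1, 2 and 3. The difference on the log2 scale was -0.11 ± 0.142 (SE), edgeR adjusted p = 0.688. Psmb6, with the caspase-like site, was at 155, 228 and 207 CPM in Normal 1, 2 and 3 and at 181, 185 and 168 CPM in Control 1, 2 and 3. The log2 value was -0.15 ± 0.158 (SE), edgeR adjusted p = 0.607. Psmb7, with the trypsin-like site, was at 352, 501 and 443 CPM in Normal 1, 2 and 3 and at 343, 386 and 352 CPM in Control 1, 2 and 3. Its log2 value was -0.26 ± 0.154 (SE), edgeR adjusted p = 0.306. Normal 1 lay below the Control-titled range for Psmb5 and Psmb6 and within it for Psmb7, and Normal 2 was the highest library for all 3. Whether the catalytic genes differed from the lid genes in their change was not tested.

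**Figure D3:**
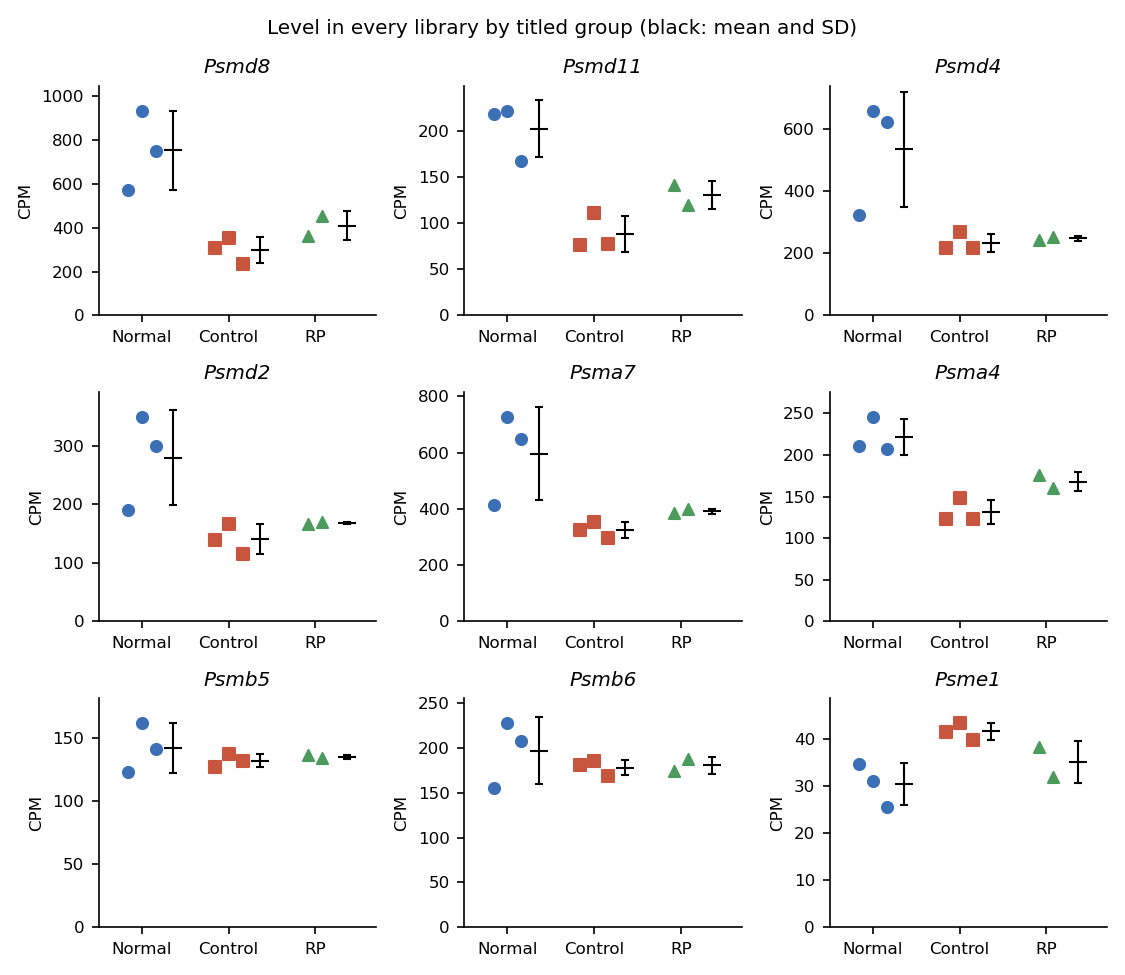
CPM (y axis, from 0) of 9 genes in every library, by titled group, with the mean and SD of each group in black. The first 6 panels show genes lower in the Control-titled libraries, while Psmb5 and Psmb6 overlap between groups and the 3 Control-titled libraries of Psme1 (39.9 to 43.6 CPM) lie above the Normal-titled ones.

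None of the activator genes passed, and their log2 changes lay on both sides of 0. Psme1 and Psme2 encode the paired subunits of the interferon-inducible activator. Psme1 was at 34.7, 31.2 and 25.7 CPM in Normal 1, 2 and 3 and at 41.7, 43.6 and 39.9 CPM in Control 1, 2 and 3, without overlap. The log2 change was 0.45 ± 0.153 (SE), edgeR adjusted p = 0.0817; it was the 1 member called higher without Normal 1. Psme2 was at 15.9, 16 and 13.4 CPM in Normal 1, 2 and 3 and at 23.5, 17.7 and 21.2 CPM in Control 1, 2 and 3. Its log2 change was 0.46 ± 0.172 (SE), edgeR adjusted p = 0.104. The end of Psme2 is 99.0% identical over 300 bases to its copy Psme2b, so reads of these genes may be exchanged; Psme2b was at a log2 change of 0.48 (adjusted p = 0.0623). The nuclear activator gene Psme3 was at 42.6, 62.3 and 70.4 CPM in Normal 1, 2 and 3 and at 41.4, 45.7 and 42.6 CPM in Control 1, 2 and 3, a log2 change of -0.43 ± 0.174 (SE), edgeR adjusted p = 0.132. Psme4, a large single-chain activator, was at 200, 271 and 214 CPM in Normal 1, 2 and 3 and at 180, 196 and 181 CPM in Control 1, 2 and 3, a log2 change of -0.30 ± 0.149 (SE), edgeR adjusted p = 0.224. The inhibitor gene Psmf1 and the base chaperone genes Psmd5, Psmd9 and Psmd10 had log2 changes between -0.26 and 0.18 and none passed.

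By structure, 12 of 18 regulatory particle genes (ATPase ring, rest of the base and lid) and 4 of 14 core genes were lower, with medians of -0.62 and -0.44. None of the 8 chaperone, activator and inhibitor genes was, where 5.45% of all genes tested were lower. All 18 and all 14 had a log2 change below 0, and 15 and 10 of them had groups that did not overlap. Whether these sets of genes differed from each other was not tested. Each library's level of a role group was taken as the median over its genes of log2 CPM minus the gene's mean over the 8 libraries. For the base outside the ATPase ring it was 0.02, 0.82 and 0.65 in Normal 1, 2 and 3 and -0.45, -0.18 and -0.44 in Control 1, 2 and 3. For the lid it was 0.16, 0.49 and 0.35 against -0.24, -0.18 and -0.23. For the beta ring it was -0.13, 0.50 and 0.17 against -0.20, 0 and -0.14, so these groups overlapped. Normal 2 was the highest of the 8 libraries for 32 of the 40 members, and Normal 1 for 2. The same count was not made over all genes tested. Their median level in Normal 2 was 0, against 0.48 for the 40 members.

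**Figure D4:**
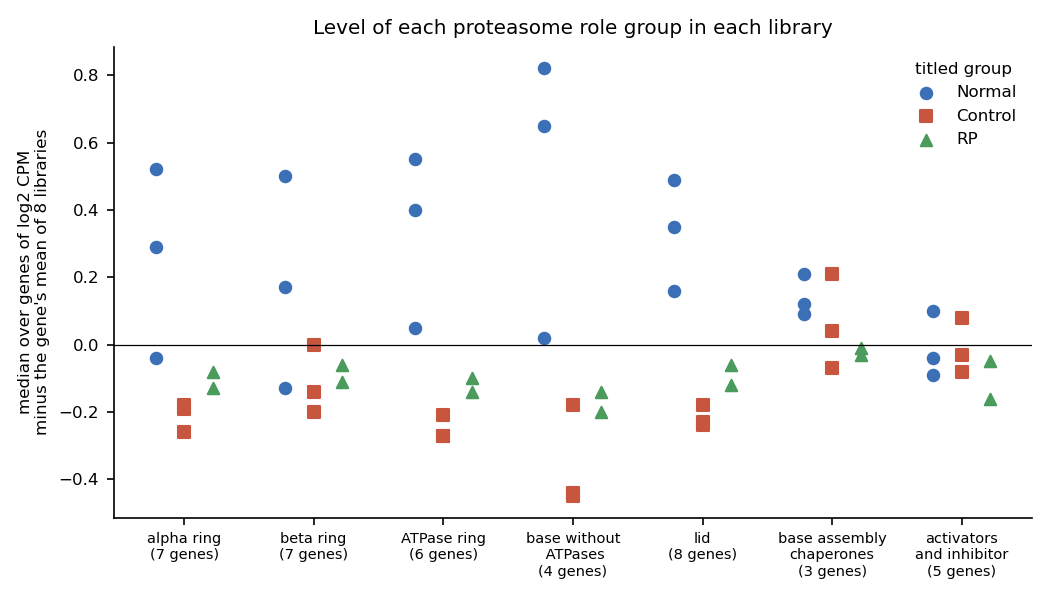
Level of each role group in each library (y axis: median over its genes of log2 CPM minus the gene's mean over the 8 libraries) for Normal-titled (circles), Control-titled (squares) and RP libraries (triangles). The alpha ring, the ATPase ring, the rest of the base and the lid separate the Normal-titled from all other libraries. The beta ring, the chaperones and the activators and inhibitor do not.

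Since 16 of these genes were lower together, their promoters were searched for letters known from proteasome gene control. Promoter windows of 300 bases (250 before and 50 after the start, RefSeq, build GRCm38.p6, which is mm10) were found for 34 of 40 members, with 37 windows in all. Psmb1, Psmb2, Psmb7, Psmc3, Psmd3 and Psmd7 had no window. TGANNNNGC is a loose form of the antioxidant response element, which the transcription factors Nfe2l1 and Nfe2l2 bind with small Maf proteins, TGACNNNGC is a stricter form contained in it, and CCAAT is the NF-Y box. Both strands were searched. TGANNNNGC was found in 21 of 37 member windows (56.8%) and in 41.3% of 32851 RefSeq windows, TGACNNNGC in 7 (18.9%) and 12.4%, and CCAAT in 13 (35.1%) and 37.4%. Of the 14 lower members with a window, 10 held TGANNNNGC, 3 TGACNNNGC and 5 CCAAT, against 9, 4 and 8 of the other 20 members.

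The 5 stretches below lie upstream of the RefSeq and GENCODE starts. They are the 3 members with the largest changes, the ubiquitin receptor gene Adrm1, and the catalytic gene Psmb5 from among those that did not pass. Each is written 5′ to 3′ on the gene's own strand, with letters of TGANNNNGC or CCAAT, on either strand, in capitals.
Psmd8, chr7:29180702-29180923, minus strand: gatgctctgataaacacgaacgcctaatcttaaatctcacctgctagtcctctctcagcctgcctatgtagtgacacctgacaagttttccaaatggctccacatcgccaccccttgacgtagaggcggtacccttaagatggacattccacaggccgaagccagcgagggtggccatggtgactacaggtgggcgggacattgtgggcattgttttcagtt
Psmd11, chr11:80428365-80428614, plus strand: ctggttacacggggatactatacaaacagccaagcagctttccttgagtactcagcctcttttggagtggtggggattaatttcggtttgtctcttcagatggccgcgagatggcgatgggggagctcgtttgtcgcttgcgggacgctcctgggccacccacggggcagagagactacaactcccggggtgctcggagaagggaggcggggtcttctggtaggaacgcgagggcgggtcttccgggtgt
Psmd4, chr3:95042615-95042864, minus strand: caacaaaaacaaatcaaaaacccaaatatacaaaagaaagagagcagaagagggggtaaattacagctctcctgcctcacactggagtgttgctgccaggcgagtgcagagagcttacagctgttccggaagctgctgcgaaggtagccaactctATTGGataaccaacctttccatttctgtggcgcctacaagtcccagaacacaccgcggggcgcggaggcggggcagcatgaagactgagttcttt
Adrm1, chr2:180171338-180171484, plus strand: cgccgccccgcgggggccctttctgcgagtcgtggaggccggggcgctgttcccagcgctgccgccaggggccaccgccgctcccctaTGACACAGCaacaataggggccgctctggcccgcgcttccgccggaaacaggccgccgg
Psmb5, chr14:54618023-54618245, minus strand: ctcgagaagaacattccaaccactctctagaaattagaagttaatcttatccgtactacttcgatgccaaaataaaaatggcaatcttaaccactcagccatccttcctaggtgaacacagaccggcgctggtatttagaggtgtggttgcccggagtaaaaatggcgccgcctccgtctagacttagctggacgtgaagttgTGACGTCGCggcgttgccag
The stretches of Psmd8 and Psmd11 held neither set of letters, although the full window of Psmd8 has TGAACATGC on the other strand, after the start and so outside the printed stretch, and is counted above, while that of Psmb5, whose level did not pass, held TGACGTCGC. A match describes letters only.

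Genes around the proteasome were taken from lists of names, also set with earlier results of these data known. The immunoproteasome genes Psmb8 and Psmb9, whose products replace catalytic beta subunits, were higher in the Control-titled libraries, opposite to the core. Psmb9 was at 4.68, 6.51 and 4.95 CPM in Normal 1, 2 and 3 and at 18.7, 9.9 and 12.1 CPM in Control 1, 2 and 3 (log2 change 1.34, edgeR adjusted p = 0.0157; 0.104 without Control 1). Psmb8 had a log2 change of 0.77 (edgeR adjusted p = 0.0362), and its adjusted p was 0.0708 and 0.0816 on leaving out Normal 2 and Normal 3, and 0.186 and 0.117 on leaving out Control 1 and Control 3. Psmb10, the third such gene, was at 0.52 on the log2 scale (adjusted p = 0.0768). Of the 7 genes of proteasome transcription control, 4 were lower and 0 higher: the small Maf genes Maff, Mafk and Mafg (log2 changes -1.76, -1 and -0.68) and Ddi2, the protease that activates Nfe2l1 (-0.62). Maff and Mafk passed without each library, whereas Mafg was lost without Control 1, 2 or 3 (edgeR adjusted p = 0.0657, 0.0562 and 0.0823) and Ddi2 without Normal 2, Control 1, 2 or 3 (0.0931, 0.0906, 0.0947 and 0.109). Nfe2l1 itself was at 213, 234 and 195 CPM in Normal 1, 2 and 3 and at 189, 188 and 154 CPM in Control 1, 2 and 3, a log2 change of -0.27 with adjusted p = 0.251.

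Of 9 shuttle receptor genes, 4 were lower (Zfand5 at -0.75, Ddi2, Ubqln1 at -0.51 and Rad23b at -0.48). Of 8 genes of the p97 segregase, which extracts ubiquitinated proteins, 2 were lower (Nploc4 at -0.89 and Ubxn4 at -0.79), and of 7 proteasome-bound factors 2 were (Txnl1 at -0.68 and AI314180 at -0.52). Zfand5, Nploc4 and Ubxn4 passed without each library in turn. Ubqln1 and Rad23b were lost without Normal 2, Control 1, 2 or 3 (edgeR adjusted p = 0.0645, 0.113, 0.0818 and 0.0764 for Ubqln1, and 0.159, 0.159, 0.12 and 0.168 for Rad23b). Txnl1 and AI314180 were lost without Normal 2, Control 1 or Control 3 (0.0666, 0.0724 and 0.0816 for Txnl1, and 0.115, 0.175 and 0.187 for AI314180). The 5 tested assembly chaperone genes of the core, Pomp among them, and the 2 ubiquitin-activating enzymes had no member called. Adjusted for Hba-a1, Maff, Mafk, Mafg, Zfand5 and Ubxn4 still passed (adjusted p = 0.0175, 0.0287, 0.027, 0.0351 and 0.0269). The calls of Psmb8, Psmb9, Ddi2 and Nploc4 did not pass with that covariate (adjusted p = 0.455, 0.0953, 0.06 and 0.292), nor did those of Ubqln1, Rad23b, Txnl1 and AI314180 (0.174, 0.26, 0.153 and 0.174).

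The second comparison, of RP with Control-titled libraries, addressed the extract in tumour-bearing mice by the titles. No member was called. The count was 0 of 40 in edgeR's quasi-likelihood test and 0 in DESeq2, where edgeR called 0.175% of all genes, 0.144% as higher and 0.0304% as lower. At an unadjusted p under 0.05 there were 3 members, Psma4 and Psmd11 above 0 and Psme2 below 0, and 1183 of 13174 genes. The log2 change was above 0 for 32 of 40 members (26 with upper-quartile scaling) and its median was 0.09, against 0 over all genes. In 16 members both RP libraries lay above all Control-titled ones and in 4 below, against 15.3 and 16.4% of all genes.

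Psmd11 was at 141 and 120 CPM in RP 1 and 2, above the 76.5 to 111 CPM of the Control-titled libraries. Its log2 change of 0.57 ± 0.200 (SE) did not pass (edgeR adjusted p = 0.393). Psmd8 was at 362 and 455 CPM in RP 1 and 2, against 233 to 352 CPM, a log2 change of 0.46 ± 0.223 (SE), edgeR adjusted p = 0.572. Psma4 was at 176 and 160 CPM, against 123 to 148 CPM, a log2 change of 0.36 ± 0.160 (SE), edgeR adjusted p = 0.544. In these 3 genes the RP libraries lay above the Control-titled range and below the Normal-titled one. Psmd4 was at 243 and 254 CPM in RP 1 and 2, within the Control-titled range of 216 to 268 CPM (log2 change 0.09 ± 0.249 (SE), edgeR adjusted p = 0.952). The catalytic genes Psmb5, Psmb6 and Psmb7 had log2 changes of 0.03 ± 0.159, 0.02 ± 0.177 and 0 ± 0.172 (SE). Psme2 was at 15.3 and 14.6 CPM, below the 17.7 to 23.5 CPM of the Control-titled libraries (log2 change -0.48 ± 0.195 (SE), edgeR adjusted p = 0.497). Psme1 was at 38.3 and 32.1 CPM, also below them (log2 change -0.25 ± 0.172 (SE), edgeR adjusted p = 0.725). Among the genes of the surrounding lists described above none was called, with Maff nearest (log2 change 1.16, edgeR adjusted p = 0.0512). Outside these lists, the ubiquitin ligase gene Trim63 was higher in RP. It was at 1190 and 1020 CPM in RP 1 and 2 and at 278, 308 and 237 CPM in Control 1, 2 and 3 (log2 change 2.01, edgeR adjusted p = 0.00173), and it passed without each library. Fbxo32, at 400 and 404 CPM against 174, 172 and 151 CPM, had a log2 change of 1.28 (edgeR adjusted p = 0.0512). Fbxo32 did not pass on leaving out any 1 library of these groups. Without RP 1 and RP 2 its log2 change was 1.29 and 1.28. Without Control 1, 2 and 3 the edgeR adjusted p of Fbxo32 was 0.18, 0.203 and 0.334. With upper-quartile scaling it was 0.0613 and with a replicate block 0.0601. Fbxo32 passed with RLE scaling (0.0479), with haemoglobin genes and Rn45s removed (0.0442), with the Hba-a1 covariate (0.0171) and without a filter (2.12e-05). Both ligase genes were lower in Control-titled than in Normal-titled libraries (log2 changes -2.36 for Trim63 and -2.79 for Fbxo32, edgeR adjusted p = 3.20e-05 and 2.49e-05).

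**Figure D5:**
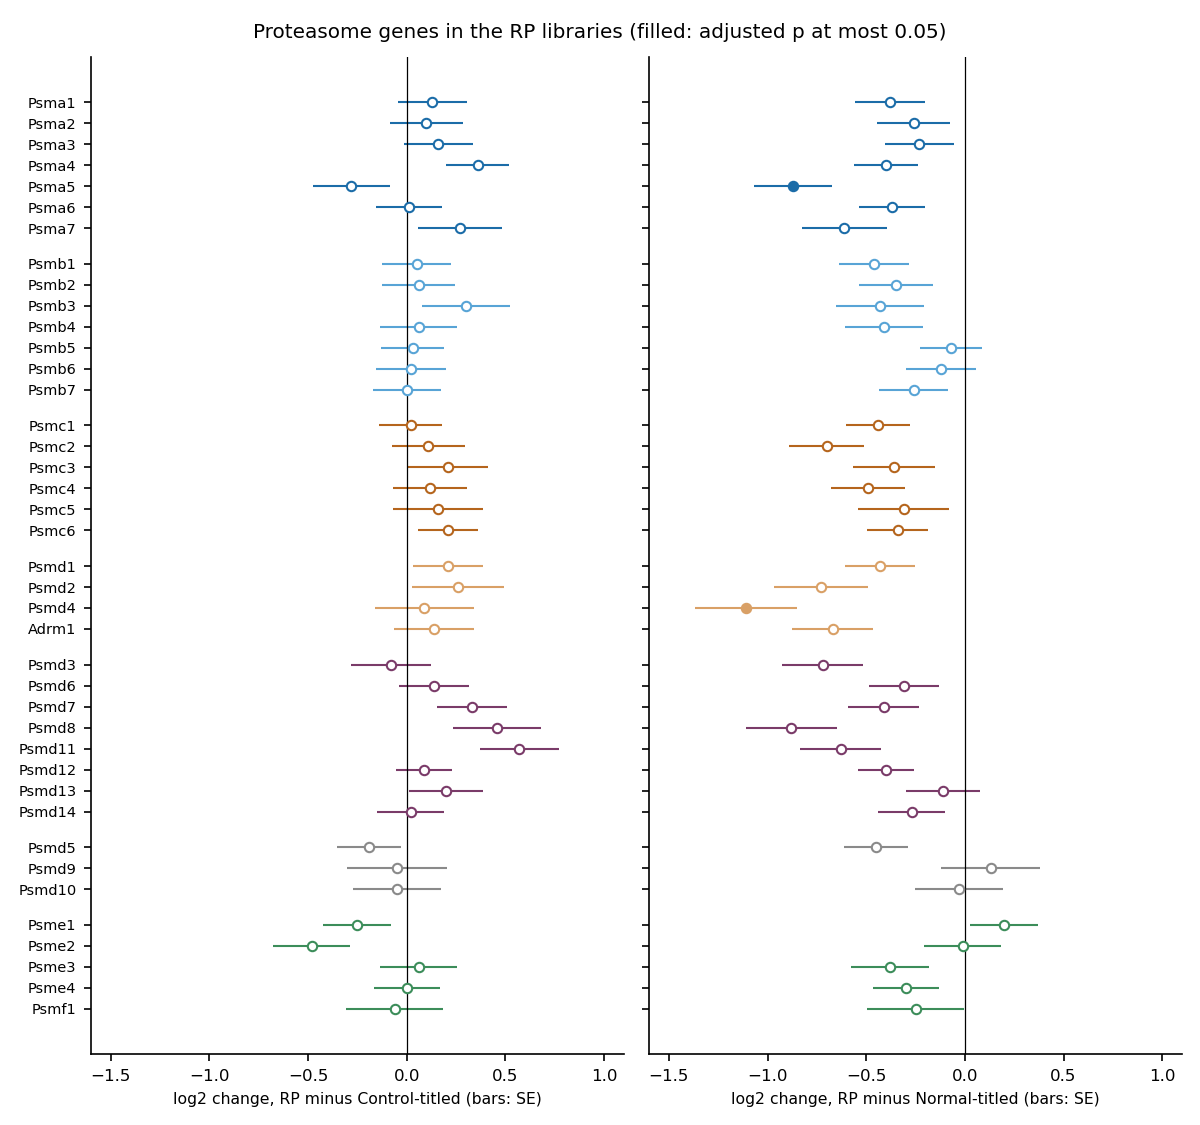
Log2 change of each of the 40 genes (rows, coloured by role) in RP against Control-titled (left) and RP against Normal-titled libraries (right), with bars of 1 SE and filled points where the adjusted p is at most 0.05. No gene is filled on the left, and Psma5 and Psmd4 are filled on the right.

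The third comparison set RP against the Normal-titled libraries. Of the 40 members, 2 were lower and 0 higher, where edgeR called 2.5% of all genes, 1.67% as higher and 0.835% as lower. The log2 change was below 0 for 38 of 40 members and its median was -0.38, against -0.04 over all genes. For 22 members both RP libraries lay below every Normal-titled one, against 15.4% of all genes. This comparison shares its RP libraries with the second and its Normal-titled libraries with the first.

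The 2 members called were Psma5, of the alpha ring, and the ubiquitin receptor gene Psmd4. Psma5 was at 33.4 and 49.4 CPM in RP 1 and 2, against 74.6, 88.9 and 64.1 CPM in Normal 1, 2 and 3. RP 1 was the lowest of the 8 libraries, and the log2 change was -0.87 ± 0.199 (SE), edgeR adjusted p = 0.0366. Psmd4, at 243 and 254 CPM against 323, 661 and 624 CPM, had a log2 change of -1.11 ± 0.258 (SE), edgeR adjusted p = 0.0416. Both calls were lost on leaving out single libraries. Without Normal 2 or RP 1 the adjusted p was 0.132 and 0.354 for Psma5 and 0.147 and 0.289 for Psmd4, and without RP 2 it was 0.148 for Psmd4. The count was 16 without Normal 1 and 0 without Normal 2 or RP 1, 1 without RP 2, and 0 with the Hba-a1 covariate or with only these groups in the fit.

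None of the lid or ATPase ring genes passed. Both RP libraries lay below every Normal-titled one for 5 of the 8 lid genes, 4 of the 6 ATPase genes and all 4 other base genes. Psmd8 was at -0.88 ± 0.231 (SE) on the log2 scale (edgeR adjusted p = 0.0652) and Psmd2 by -0.73 ± 0.237 (SE, adjusted p = 0.126). Psmc2, at 194 and 202 CPM in RP 1 and 2, was at -0.70 ± 0.190 (SE, adjusted p = 0.0758). Psmb5 and Psmb6 were at -0.07 ± 0.159 and -0.12 ± 0.177 (SE), and Psme1 at 0.20 ± 0.172 (SE). Of the surrounding genes Nploc4 was lower (log2 change -0.84, edgeR adjusted p = 0.0392; 0.135, 0.0528, 0.268 and 0.152 without Normal 2, Normal 3, RP 1 and RP 2). Over the 3 groups, the mean of RP lay between the means of the Normal-titled and Control-titled libraries for 34 of 40 members and below both for 6. The same count was not made over all genes tested, so no share stands beside it. Among the 34, Psme1 and Psmd9 had their lowest mean in the Normal-titled libraries and their highest in the Control-titled ones. The place of RP between the other groups is a description, since RP and Control-titled libraries did not differ past the threshold in any member.

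For some members reads may belong to another gene, because the strand counted is not stated or the end of the transcript has a close copy. Exons of Psma4, Psma5, Psmb7, Psmc3, Psmd1, Psmd3, Psmd9, Psmd13 and Psme1 overlap a gene on the other strand in GENCODE M21. The last 300 bases of transcripts of Adrm1, Psma3, Psma4, Psma5, Psmb3, Psmb5, Psmb7, Psmc3, Psmd1, Psmd2, Psmd11, Psmd13, Psme1 and Psme2, and of Mafg, Mafk and Psmb8 outside the list, match another gene or pseudogene over at least 75 bases at 95% identity or more. Psmd4, Psmd7, Psmd8, Psmd12, Psma7, Psmc2, Psmc4 and Psmc6, also among the lower genes, had neither.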

How the data were processed

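QuantSeq 3' libraries (Lexogen) used 500 ng of RNA each, per the labels' protocols. Each deposited table holds raw counts per gene symbol for 1 library. Per the submitters' processing notes, Bowtie2, edgeR and build mm10 were used; versions, counting tool, strand and annotation are not given in the sources used here. Of 23282 rows, 13174 passed edgeR's filterByExpr. Genes were fitted in R 4.3.3 with edgeR 4.0.16 (TMM scaling, quasi-likelihood test, 2-sided, all 8 libraries in 1 fit grouped by title) and adjusted by Benjamini-Hochberg over all genes tested, threshold 0.05. CPM are TMM-scaled counts per 1000000, except the sums of cell type markers, which are not TMM-scaled. Log2 CPM has a prior count of 2. A log2 change is the first-named group minus the second. The SE of a log2 change was worked back from the quasi-likelihood test, as its absolute value divided by the square root of the F statistic. Alternatives were RLE and upper-quartile scaling, no filter, haemoglobin genes and Rn45s removed, log2 Hba-a1 as a covariate, a replicate block, only the groups compared, DESeq2 1.42.0 and leaving out each library. A lone remaining RP library takes its spread from the other groups. The code was tested on simulated data. For each comparison 67 of 13174 genes, drawn at random, were changed 1.5-fold, 67 were changed 2-fold and 66 were changed 4-fold. The members were not set apart, and the number of changed genes was set beforehand. The rates that follow therefore describe the code and are not the sensitivity for the members. In the simulated data, 5.97% of 1.5-fold and 41.8% of 2-fold changes were called in RP against Control. For Control against Normal these were 16.4 and 73.1%, and for RP against Normal 11.9 and 58.2%. Of the simulated calls, 14.3, 8.66 and 7.27% were false in these comparisons, in the same order. Full values are given for the members with the largest called change in each role and for fixed catalytic, receptor, lid and activator genes; other members by counts and range. Members, lists and the Hba-a1 covariate were chosen with earlier results of these data known. Positions are from GENCODE M21, ends were compared with blastn 2.17.0, and figures drawn with matplotlib 3.10.9. The list of ubiquitin genes is not reported here.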

Additional observations from a re-analysis of the deposited data

How the results depend on the processing

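In Control-titled against Normal-titled libraries, the 16 members called became 1 with the Hba-a1 covariate, where the median log2 change moved from -0.47 to -0.26, and ranged from 4 to 27 when 1 library was left out. The count was 14 to 20 under the other alternatives without a block, all lower. In RP against Control it was 0 under every alternative run. In RP against Normal, the 2 members called became 7 without a filter, 7 in DESeq2, 0 with the Hba-a1 covariate and 0 with only these groups, and ranged from 0 to 16 when 1 library was left out. The replicate block gave 13, 0 and 2 members in the 3 comparisons; in RP against Normal it kept Psma5, lost Psmd4 (adjusted p = 0.057) and gained Psmd8. Replicate numbers are not known to pair samples: deviations of same-numbered libraries correlated at -0.07 to 0.08 across genes, and 2 of 8 libraries correlated best with their own number.

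Over all 40 members, the number with a log2 change below 0 went from 38 to 31 with the Hba-a1 covariate in RP against Normal, from 8 to 14 with upper-quartile scaling in RP against Control, and in the latter ranged from 6 to 13 with 1 library left out. The sign changes that follow are those of the catalytic, deubiquitinase and activator genes described singly, none of which passed in either fit. With the Hba-a1 covariate they were, in Control against Normal, Psmb5 (0), Psmb6 (0.17), Psmb7 (0) and Psme3 (0.10); in RP against Normal, Psmb5 (0.02), Psmb6 (0.15), Psme1 (-0.12) and Psme3 (0.08); and in RP against Control, Psmb6 (-0.02), Psmb7 (-0.04) and Psme3 (-0.01). In RP against Control, upper-quartile scaling gave Psmb6 -0.01, Psmb7 -0.03, Psmd14 -0.01 and Psme4 -0.03, and the replicate block gave Psmd14 -0.04 and Psme4 -0.02. In RP against Normal, Psme2 was 0 without haemoglobin genes and 0 with only these groups. For those that turned sign with 1 library left out, the range in RP against Control was -0.03 to 0.08 for Psmb6, -0.05 to 0.06 for Psmb7, -0.13 to 0.16 for Psmd14 and -0.05 to 0.06 for Psme4, and in RP against Normal -0.17 to 0.03 for Psmb5 and -0.08 to 0.03 for Psme2. The cause of these changes was not tested. Groups of 2 or 3 libraries and library depth both limit these comparisons.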
